A study of Equus caballus with 3 samples.

Results

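Within the BM-derived MSC library, 100 of 5580 kept cells were set apart by how much of their RNA came from *LAMP2*, *PCOLCE* and *OLFML3*. Each kept cell was ranked by the UMIs (unique molecular identifiers, the counted transcripts) of these 3 genes divided by all its UMIs, and the 100 highest were taken. The other 5480 kept BM cells served as the comparison, and 16301 cells were kept over the 3 libraries of the series. The 3 ranking genes chose the cells, so their levels are given as a description only and they were left out of every other count.

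*LAMP2* is a glycoprotein of the lysosomal membrane with a role in autophagy. *PCOLCE* is a secreted glycoprotein that enhances the cleavage of procollagen by its C-proteinase, and *OLFML3* is a secreted olfactomedin-domain protein of the extracellular matrix. Cultured MSCs are plastic-adherent fibroblast-like cells that secrete collagens, small proteoglycans and matrix-modifying enzymes. A cell that makes and turns over matrix relies on the secretory pathway to fold and glycosylate proteins, and on lysosomes and proteasomes to degrade them.

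The cells were culture-expanded MSCs derived from fat (AT), marrow (BM) and blood (PB) of 1 healthy female Warmblood horse aged 10 years, with no treatment named in the labels, and were profiled by droplet 3′-end RNA sequencing. Each source was 1 library, so nothing below measures variation between animals, cultures or libraries. The sample titles name the 3 sources, whereas the source field of all 3 entries reads as blood mononuclear cells. The titles were followed. The stromal markers below took 1.28% of UMIs in the BM cells outside the 100. In AT and PB cells outside the 100 ranked alike there, they took 1.77% and 1.96%. Their abundance thus does not tell the 3 sources apart.

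Cells were kept between 2500 and 15000 UMIs when chromosome MT, the mitochondrial genome, held no more than 3% of them, which left 5403 AT, 5580 BM and 5318 PB cells with 39980656 to 41622445 UMIs per library. Of the kept BM barcodes, 77 were also kept in the AT or PB library, among them 1 of the 100. The 100 cells summed to 744803 UMIs and the other BM cells to 39494492. Levels are counts scaled to 1000000 UMIs (CPM) of these sums with exact Poisson 95% intervals, fold intervals are exact conditional 95% intervals, and shares of cells have Clopper-Pearson 95% intervals. All of them cover counting error only. With cells of 1 library there are no replicates, so no test was made and "higher" and "lower" describe this library.

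The 3 ranking genes together took 15.6 to 49.4 of every 10000 UMIs in the 100 cells (median 21.03), against 0 to 15.6 (median 3.00) in the other cells. The scores fell without a gap at the boundary. Cells at ranks 98, 99 and 100 scored 15.7, 15.7 and 15.6 per 10000 UMIs, and cells at ranks 101, 102 and 103 scored 15.6, 15.5 and 15.4. The number of ranking-gene UMIs behind a score was small, from 5 to 36 per cell with a median of 16. All 3 genes were detected in 81 of the 100 cells, 2 of them in 18 and 1 in the remaining cell, whereas 10.8% of the other cells held all 3.

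Each ranking gene was also left out of the score in turn. The 3 genes were picked together from these data, so the values describe the ranking and are no independent support for it. Among the 100 cells that ranked highest on *PCOLCE* and *OLFML3* alone, *LAMP2* stood at 260.0 CPM against 42.6 CPM in the rest, 6.10-fold higher (5.22 to 7.09). *PCOLCE* was 5.01-fold higher (4.50 to 5.56) in cells ranked on *LAMP2* and *OLFML3*, and *OLFML3* was 4.15-fold higher (3.83 to 4.49) in cells ranked on *LAMP2* and *PCOLCE*. These rankings shared 87, 74 and 68 cells with the 100.

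**Figure D1:**
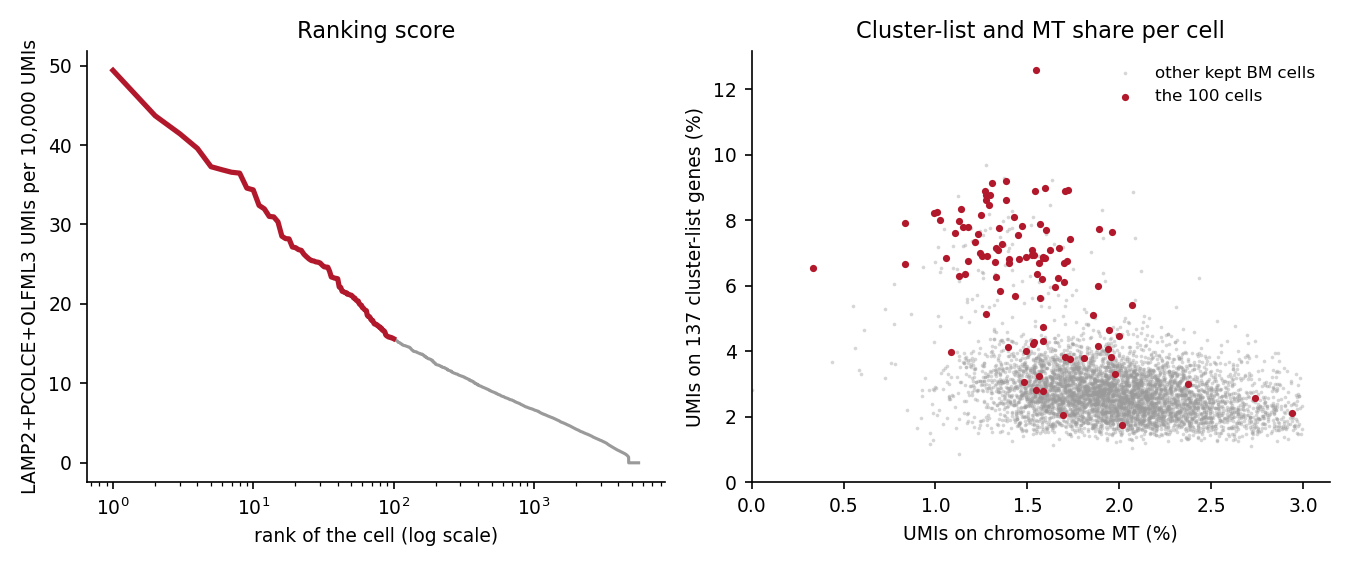
Left, the ranking score of all 5580 kept BM cells (UMIs of the 3 ranking genes per 10,000 UMIs) against rank on a log scale, with the 100 cells in red; right, the share of UMIs on 137 genes of the study's cluster list against the share on chromosome MT, 1 point per cell. The score falls without a step at rank 100, and the red points lie high within the range of the grey ones, with medians of 6.84% and 2.67% on the list; 1 of the 100 cells is above every other cell.

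In size the 100 cells resembled the others. They held 2715 to 14082 UMIs (median 7370.5) and 1148 to 3367 genes (median 2332), while the other cells held 2501 to 14997 UMIs (median 6871) and 911 to 3850 genes (median 2183). The ranges overlapped throughout. When every cell was thinned to 2500 UMIs, the median was 1159.5 genes in the 100 cells and 1127 in the others.

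Among 4820 genes with at least 20 CPM over the kept BM cells, 215 (4.46%) were at least 2-fold higher in the 100 cells and 193 (4%) at least 2-fold lower, that is, with a log2 ratio of (CPM + 1) of at least 1 or at most -1. The median log2 ratio was -0.07, and the middle 90% of genes lay between -0.93 and 0.96. Many low calls rest on few UMIs, and with a pseudocount of 25 CPM in place of 1 the counts were 95 higher and 40 lower.

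**Figure D2:**
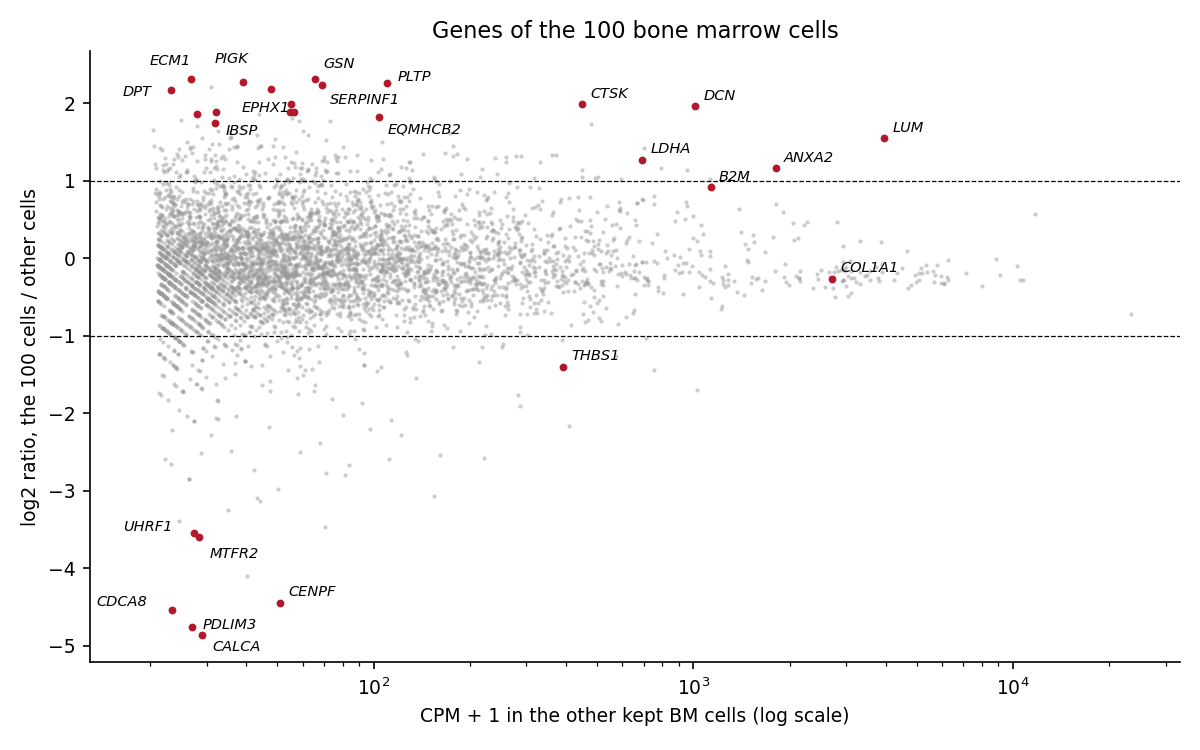
Log2 ratio of each gene in the 100 cells over the other kept BM cells against its level in the other cells (CPM + 1, log scale); dashed lines mark 2-fold and red points are genes named in the text, most of them labelled. *DCN*, *LUM* and *CTSK* stand apart among abundant genes, at log2 ratios of 1.96, 1.55 and 1.99, and *CALCA*, *PDLIM3*, *CDCA8* and *CENPF* are among the lowest points.

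Mitochondrially encoded RNA took a smaller share of the 100 cells. The share on chromosome MT ran from 0.334% to 2.94% (median 1.53%) in the 100 cells and from 0% to 2.99% (median 1.96%) in the others, and 87.4% of the other cells lay above the median of the 100. The ranges overlapped, and both ended near the 3% limit used to keep cells. Of 16 measured genes of this chromosome, 15 had a log2 ratio below 0, none by 2-fold. Ribosomal protein genes, a set of 58 symbols gathered after the values were seen, behaved alike: they took 16.1% of UMIs in the 100 cells and 18.8% in the others, with 53 of 57 measured members below 0 and none 2-fold lower. A lower share is relative, because shares within a cell sum to the whole.

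The genes with the highest ratios had varied roles. *GSN*, which severs actin filaments and also circulates in a secreted form, was at 325 CPM (285 to 369) against 64.4 CPM (61.9 to 67.0), 5.04-fold higher (4.40 to 5.76). A UMI for it was found in 77 of the 100 cells (67.5% to 84.8%) and in 33.7% (32.4% to 34.9%) of the others, and in 46 cells and 14.5% after thinning to 2500 UMIs. The library held no lineage free of these genes, so a background from free RNA could not be set.

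*ECM1*, a secreted matrix glycoprotein, was 5.09-fold higher (132 against 25.8 CPM) and *DPT*, dermatopontin, a small matrix protein that binds decorin, was 4.67-fold higher (103 against 22.2 CPM). *DPT* was detected in 30 of the 100 cells (21.2% to 39.98%) and 11.3% of the others, and *ECM1* in 41 and 15.2%. Each thus had no UMI in most of the 100. *SERPINF1*, the secreted pigment epithelium-derived factor, stood at 324 against 67.9 CPM (4.77-fold). *PLTP*, the phospholipid transfer protein, stood at 524 CPM (473 to 578) against 109 CPM (106 to 112), 4.81-fold higher, and *PIGK*, the catalytic subunit of the enzyme that attaches GPI anchors, at 188 CPM (158 to 222) against 38.1 CPM (36.2 to 40.1), 4.93-fold higher. *PLAT*, tissue plasminogen activator, was 3.73-fold higher.

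Further leading genes were enzymes. *EPHX1*, the microsomal epoxide hydrolase, was at 215 against 46.7 CPM (4.60-fold), *SELENBP1*, a selenium-binding protein, at 118 against 31.2 CPM (3.79-fold), *CA2*, a cytosolic carbonic anhydrase, at 207 against 55.3 CPM (3.74-fold) and *UCHL1*, a deubiquitinating enzyme, at 219 against 54.3 CPM (4.03-fold). *UCHL1* was found in 37 of the 100 cells and 23.01% of the others, *CA2* in 37 and 20.7%, and *SELENBP1* in 49 and 18.6%. *UCHL1*, *CA2* and *SELENBP1* were thus each seen in a minority of the 100, whereas *EPHX1* had a UMI in 65 cells and 24.3% of the others.

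Small leucine-rich proteoglycans, which bind collagen fibrils and govern their spacing, took 1.64% of UMIs in the 100 cells and 0.566% in the others. Per cell the share ran from 0.378% to 4.52% (median 1.54%) in the 100 and from 0% to 3.18% (median 0.558%) in the others, and 97 of the 100 lay above the median of the others. Of 7 measured members, 3 were at least 2-fold higher and none lower, with a median log2 ratio of 0.81. Over all 4820 genes the shares were 4.46% higher and 4% lower, and these stand beside every BM list below. At 4%, most of these lists would hold few lower members or none.

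*LUM*, lumican, was the most abundant of them, at 11559 CPM (11316 to 11806) against 3954 CPM (3934 to 3974), 2.92-fold higher (2.86 to 2.99). Per 10000 UMIs of a cell it ran from 18.9 to 354 (median 104.5) in the 100 cells and from 0 to 223 (median 38.7) in the others, and 140 of the 5480 other cells (2.55%) exceeded the median of the 100. *DCN*, decorin, was at 3955 CPM (3814 to 4101) against 1014 CPM (1004 to 1024), 3.90-fold higher, with a UMI in all 100 cells. *OMD*, osteomodulin, was 2.36-fold higher. *BGN*, biglycan, was close to even at 540 against 459 CPM, and *OGN*, osteoglycin, was at 76.5 against 102 CPM, so the members differed unequally.

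No measured fibrillar collagen reached 2-fold in either direction. *COL1A1* was at 2258 against 2709 CPM (log2 ratio -0.26), *COL1A2* at 4475 against 3868 CPM (0.21), *COL3A1* at 1784 against 1549 CPM (0.20) and *COL5A2* at 274 against 450 CPM (-0.71, 1.64-fold lower, 1.43 to 1.90). *COL11A1* was at 18.8 against 33.2 CPM (-0.79, 1.77-fold lower, 1.05 to 3.24). Of 23 measured collagen and collagen-processing genes, 4 were at least 2-fold higher and none lower (median 0.21). These were *CTSK*, the collagen-degrading cathepsin, *P4HA1* and *P4HA2*, subunits of the prolyl hydroxylase that modifies nascent collagen, and *COL8A1*, a short-chain collagen, at 234 against 104 CPM.

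Of 20 other matrix glycoproteins measured, 6 (30%) were at least 2-fold higher and 1 (5%) lower. Over all genes the shares were 4.46% and 4%. The count higher was 2 among cells with few cell cycle UMIs. It was 4 with 200 cells, with ranking or sums at 2500 UMIs per cell, and with a pseudocount of 25 CPM. The count lower was 0 with 200 cells and among cells with few cell cycle UMIs, and 2 with the score without *PCOLCE*. Among the higher genes were *EFEMP1* (3.00-fold) and *PTN*, the growth factor pleiotrophin (473 against 195 CPM). *THBS1*, thrombospondin, was 2.65-fold lower (2.19 to 3.22), at 148 against 391 CPM, and *THBS2* was at 77.9 against 150 CPM. Among protease inhibitors and secreted plasma-type proteins, 5 of 10 were at least 2-fold higher and 1 lower (median 1.05). *TIMP1*, an inhibitor of matrix metalloproteinases, was at 1592 against 478 CPM (3.33-fold) and *SERPING1*, the inhibitor of complement C1, at 101 against 36.3 CPM.

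Lysosomal genes took 1.45% of UMIs in the 100 cells and 0.844% in the others, and 97 of the 100 lay above the median of the others. *LAMP2* was not counted. Of 44 measured members, 15 (34.1%, against 4.46% of all genes) were at least 2-fold higher and none lower, with a median log2 ratio of 0.66. *GLB1*, beta-galactosidase, was at 197 against 57.2 CPM, *CTSS*, cathepsin S, at 109 against 31.4 CPM and *PSAP*, the precursor of the saposins, at 462 against 182 CPM.

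*CTSK* was at 1778 CPM (1683 to 1876) against 447 CPM (440 to 453), 3.98-fold higher (3.76 to 4.21). Its spread between cells was wide, from 0 to 151 per 10000 UMIs (median 9.49) in the 100 and from 0 to 140 (median 2.05) in the others. The lysosomal difference was uneven: *LAMP1*, the structural relative of *LAMP2*, was at 295 against 289 CPM, *CTSB*, cathepsin B, at 290 against 268 CPM, and *ATP6V1A* and *ATP6V0C*, subunits of the proton pump that acidifies the lysosome, had log2 ratios of -0.62 and -0.20.

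Proteasome subunits took 0.726% of UMIs against 0.5004%. Of 31 subunits, 8 were at least 2-fold higher, none lower, and 29 had a ratio above 0 (median 0.64). The ATPase subunits *PSMC2* (187 against 61.4 CPM) and *PSMC4* (121 against 48.1 CPM) and the ubiquitin receptor *PSMD4* (172 against 69.0 CPM) led, while *PSMA7* and *PSMC3* had log2 ratios of -0.28 and -0.18. The 8 subunits of the chaperonin that folds actin and tubulin all had ratios above 0 (median 0.76), of which *CCT5* and *CCT8* were 2.499-fold and 2.48-fold higher.

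In the endoplasmic reticulum, 9 of 34 genes for folding and glycosylation were at least 2-fold higher and none lower (median 0.20). They included the oligosaccharyltransferase subunit *DDOST* (2.54-fold), the glucosidase subunit *PRKCSH* (2.60-fold), *OS9*, a lectin of the degradation pathway (2.72-fold), and the chaperones *CALR* (1199 against 592 CPM) and *HSP90B1* (1007 against 492 CPM). Of the 34, 20 had a ratio above 0 and 14 below, the latter including *CRELD2* (89.96 against 164 CPM) and *SDF2L1* (-0.42). Heat shock genes had 2 of 13 at least 2-fold higher (median 0.45), led by *HSPA1A* (2.49-fold), and *HSPB1* was at 904 against 944 CPM.

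Genes of amino acid metabolism and charging gave these values. *ASNS*, asparagine synthetase, and *PHGDH*, the entry enzyme of serine synthesis, were 2.76-fold and 2.75-fold higher, the only 2 of 14 stress-response genes past 2-fold (median 0.12). Of 18 tRNA synthetases, 4 were at least 2-fold higher, none lower, and 14 had a ratio above 0 (median 0.53), with *RARS*, *AARS* and *CARS* at 3.54-fold, 3.14-fold and 2.89-fold, while *KARS* was at 502 against 553 CPM.

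Redox and detoxification enzymes had 9 of 25 members at least 2-fold higher and none lower (median 0.76), and 93 of the 100 cells lay above the median of the others for their summed share. Besides *EPHX1* and *SELENBP1* these included the aldehyde dehydrogenases *ALDH9A1* (3.18-fold) and *ALDH2* (307 against 129 CPM). *GPX4*, which reduces lipid peroxides, was at 921 against 1043 CPM.

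Nuclear-encoded genes of the citric acid cycle and respiratory chain had 7 of 34 members at least 2-fold higher and none lower (median 0.45). *ETFA*, an electron transfer flavoprotein, was 2.77-fold higher and *ATP5F1B*, the catalytic subunit of ATP synthase, was at 644 against 259 CPM, whereas *CYCS*, cytochrome c, was at 219 against 358 CPM. The nuclear list thus had a median above 0 in the cells whose mitochondrially encoded RNA had the smaller share. Of 15 glycolysis genes, *LDHA*, lactate dehydrogenase, was 2.41-fold higher (1664 against 689 CPM) and *ENO2* 2.06-fold, while *PGAM1* and *HK1* had log2 ratios of -0.63 and -0.89. Of 12 hypoxia-responsive genes, 4 were at least 2-fold higher and 1 lower (median 0.13), against 4.46% and 4% of all genes. *ANGPTL4* was 2.89-fold higher and *NDUFA4L2* 2.22-fold lower (1.72 to 2.92). These hypoxia counts depended on the setting: 1 was higher and 2 lower with at most 10000 UMIs. Among cells with few cell cycle UMIs 2 were higher and 0 lower. The count lower was also 0 with 50 or 200 cells, where 4 and 3 were higher.

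Genes of MHC class I, which presents peptides on the cell surface, had 2 of 5 measured members at least 2-fold higher (median 0.92): *Eqca-2* at 101 against 26.9 CPM and *EQMHCB2* at 365 against 103 CPM. *Eqca-2* had a UMI in 44 of the 100 cells and 16.6% of the others. Equine class I genes are close copies of each other, so reads may be split among them. *B2M*, their shared light chain, was at 2142 against 1132 CPM. The annexins *ANXA1*, *ANXA2* and *ANXA5*, calcium-dependent membrane-binding proteins, were 2.02-fold to 2.24-fold higher, with *ANXA2* at 4060 against 1811 CPM, whereas *S100A6* was at 4224 against 4919 CPM.

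Contractile genes, targets of YAP and immediate early genes had no member past 2-fold in either direction, with medians of 0.09 over 15, -0.11 over 5 and -0.29 over 11 measured genes. With 4.46% of all genes higher and 4% lower, lists of this size would hold few such members or none. *ACTA2*, smooth muscle actin, was at 1224 against 754 CPM and *VCL*, vinculin, at 409.5 against 650 CPM. *CTGF* was even at 201 against 199 CPM, and *JUN* was at 48.3 against 92.5 CPM.

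**Figure D3:**
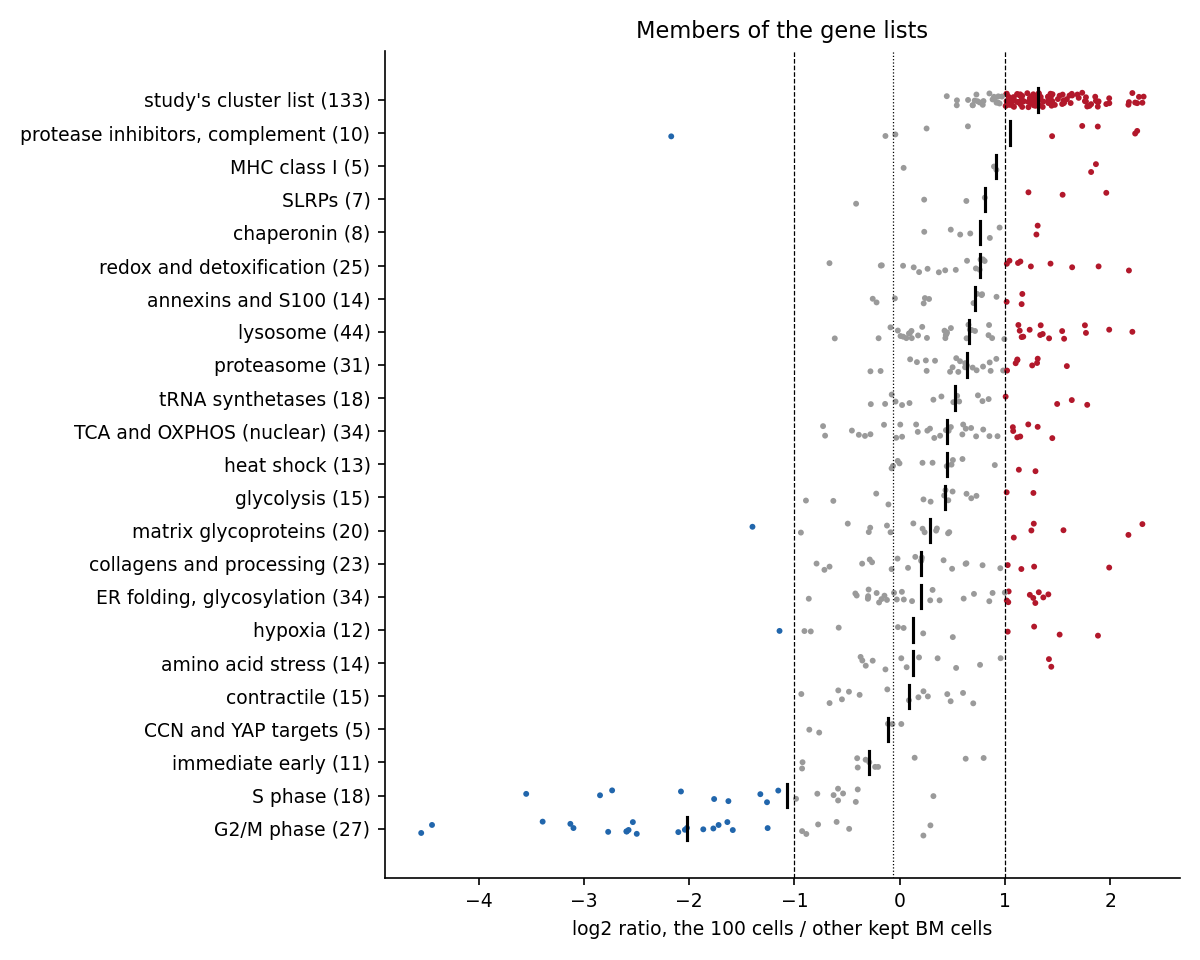
Log2 ratio of every measured member of 23 gene lists in the 100 cells over the other kept BM cells, 1 point per gene with the number measured in brackets; black bars are list medians, the dotted line the median of all genes and dashed lines 2-fold, with red above and blue below. The study's cluster list lies highest (median 1.31) and the S and G2/M phase lists lowest (medians -1.07 and -2.02).

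The study listed 137 genes besides the ranking genes for a BM cluster in which these 3 were prominent. That list was drawn from the same libraries and is not independent of the ranking. Of its members, 133 reached 20 CPM, 112 were at least 2-fold higher and none lower, with a median log2 ratio of 1.31. They took 6.76% (6.70% to 6.82%) of UMIs in the 100 cells and 2.73% in the others. Per cell the share was 1.76% to 12.6% (median 6.84%) against 0.861% to 9.67% (median 2.67%), so the groups overlapped. Of the 100 cells 60, and of the 5480 others 55, lay above 6.42%, the 99th percentile of the others, and 4 of the 100 lay below the median of the others.

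Genes of cell division were among the lowest in the 100 cells. *CENPF*, a kinetochore protein, had 1 UMI in the 100 cells against 49.9 CPM in the others, 37.2-fold lower (6.66 to 1469). *CDCA8*, a subunit of the chromosomal passenger complex, had none, which against a floor of 3 UMIs over the 100 cells was at least 5.54-fold lower; its exact 95% interval started at 4.50-fold. *UHRF1*, which maintains DNA methylation at replication, and *MTFR2*, a regulator of mitochondrial fission, had 1 UMI each, with ratios of 19.7-fold (3.52 to 777) and 20.4-fold (3.65 to 806) lower.

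Of 27 measured G2/M genes, 20 were at least 2-fold lower and none higher (median -2.02), and of 18 S phase genes 9 were lower (median -1.07). *TOP2A*, the topoisomerase that untangles replicated chromosomes, was at 4.03 against 42.9 CPM and found in 3 of the 100 cells. *CDK1* was at 13.4 against 43.9 CPM and *PCNA*, the replication clamp, at 118 against 178 CPM. The summed G2/M share had medians of 0.177% and 0.199% per cell, and its upper tail differed: 1 of the 100 cells and 548 of the 5480 others exceeded 0.676%, the 90th percentile of the others. When only cells with a low share of S and G2/M UMIs were ranked, 4 of the 27 G2/M genes were at least 2-fold lower (median -0.27) and 2 of the 18 S phase genes (median 0.04), 141 genes were higher and 55 lower, and 60 of the 100 cells were shared. In that ranking 10 of 44 lysosomal, 1 of 23 collagen and collagen-processing, 2 of 18 tRNA synthetase and 0 of 14 amino acid stress genes were at least 2-fold higher. Proteasome subunits kept 8 of 31 and small leucine-rich proteoglycans 3 of 7. Over all genes, the 141 higher and 55 lower were fewer than the 215 and 193 of the main ranking. The shares of 4.46% and 4% therefore do not stand beside these counts. With a pseudocount of 25 CPM, 11 of the G2/M genes (median -0.89) and 1 of the S phase genes (median -0.57) were at least 2-fold lower. Over all genes 40 were lower with that pseudocount.

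Several of the lowest genes were not of the cell cycle. *CALCA*, which encodes calcitonin and its related peptide, was at 28.0 CPM in the other cells, where 283 cells (5.16%) held it, and had no UMI in the 100, at least 6.94-fold lower against the same floor, with an exact interval from 5.63-fold. *PDLIM3*, a PDZ-LIM protein of the actin cytoskeleton, was in 460 of the other cells and none of the 100, at least 6.47-fold lower against that floor, with an exact interval from 5.26-fold. These intervals, like those of other genes with 0 UMIs in the 100, count UMIs as independent. The 283 cells held 1104 *CALCA* UMIs, so for this gene the fold bound overstates what 100 cells can show. For both, 0 of 100 cells allows a share of cells with a UMI of up to 3.62%, which does not limit the share of cells that express the gene. In the others that share was 4.59% to 5.78% for *CALCA* and 7.67% to 9.16% for *PDLIM3*. Of the 10 lowest genes, 4 carried an Ensembl identifier alone, among them ENSECAG00000035530 with 0 UMIs and ENSECAG00000032694 with 1.

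Stromal identity was shared by both sets of cells. Of 9 measured stromal markers, *DCN* and *LUM* were at least 2-fold higher, while *THY1* was at 493 against 532 CPM, *ENG* at 61.8 against 64.3 CPM, *CD44* at 353 against 284 CPM and *PDGFRB* at 60.4 against 69.2 CPM. Markers of most other lineages were at few UMIs. Haematopoietic markers summed to 12 UMIs over the 100 cells and 640 over the others (0.994-fold, 0.511 to 1.75), with 3 of 14 detected and *PTPRC*, *CD14* and *CSF1R* at 0. Endothelial markers had 0 UMIs for all 8 in the 100 cells and 11 in the others. Osteoclast markers had 16 UMIs, from 2 of 8 genes, against 329 in the others, 2.58-fold higher (1.46 to 4.25). Of these *ATP6V0D2*, a proton pump subunit, had 12 UMIs and *MMP9*, a gelatinase, 4, while *ACP5*, the tartrate-resistant acid phosphatase, was at 0 in both sets of cells. Erythroid markers had 10 UMIs against 160, 3.31-fold higher (1.56 to 6.26). All 10 lay in 2 of the 100 cells, 1 of them with 0.234% of its UMIs on these markers. The interval counts UMIs as independent, so it does not describe the 100 cells. Pericyte, chondrocyte and tenocyte markers had 12, 11 and 4 UMIs against 1059, 605 and 175, with fold intervals that included 1. The part of these markers in the other differences was not tested.

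Osteoblast markers were more abundant, at 0.0423% against 0.0182% of UMIs. *IBSP*, bone sialoprotein, was at 106 against 30.9 CPM (3.43-fold, 2.70 to 4.31), but a UMI was present in only 12 of the 100 cells (6.36% to 20.02%) and 5.46% (4.87% to 6.09%) of the others. *ALPL*, alkaline phosphatase, was at 187 against 94.2 CPM and *SP7*, an osteoblast transcription factor, at 36.3 against 23.4 CPM. *DMP1*, *PHEX* and *MEPE* were at 0 in the 100 cells. Of 9 osteoblast markers in the data, 6 had a UMI in the 100 cells and 7 in the others, so most of these zeros were shared. The lone measured adipocyte marker, *PLIN2*, was at 99.4 against 69.3 CPM.

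The 100 cells were not alike among themselves. When the BM cells were placed by 3000 variable genes without the ranking genes, a cell of the 100 had a median of 7 of the 100 among its 20 nearest neighbours (0 to 15), against a median of 0 (0 to 15) for the others and 0.358 for an even spread. Leiden clustering at a resolution of 0.6 put 67 of the 100 into a cluster of 140 cells. The other 33 were spread over 5 of the remaining 6 clusters, 12 at most in any of them. At 0.8 a cluster of 143 cells again held 67, and at 0.4 a cluster of 1430 cells held 79. The positions rest on the same cells' RNA and are a description.

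The 67 cells of that cluster had a median of 8317 UMIs and the 33 outside it 5485. Their share on the study's list was 4.65% to 12.6% (median 7.26%) in the cluster and 1.76% to 7.90% (median 4.07%) outside. *UCHL1* was at 274 CPM (233 to 320) in the 67 and 29.8 CPM (9.68 to 69.6) in the 33, and *ECM1* at 165 CPM (133 to 201) and 17.9 CPM (3.69 to 52.3). *DCN* was at 4415 CPM (4245 to 4590) and 2373 CPM (2146 to 2618), while *CA2* was at 199 CPM (165 to 239) and 233 CPM (165 to 318). Summed over the 33 cells, *CA2* was thus near its level in the 67, while *UCHL1* and *ECM1* were lower. *CA2* had a UMI in 37 of the 100 cells, so these sums need not describe most cells of either set. *DCN* in the 33 was still above the 973 CPM of the 5407 other cells outside the cluster.

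The remaining 73 cells of the cluster scored 2.16 to 15.4 on the ranking genes per 10000 UMIs and had a median of 6.82% on the study's list. The leading genes were chosen for their ratio of the 100 cells, which hold the 67, over the others, which hold the 73, so lower levels in the 73 follow in part from that choice and are given as a description. *CTSK* was at 1031 CPM (957 to 1110) in the 73 against 1998 CPM (1884 to 2117) in the 67, *DCN* at 3344 against 4415 CPM, *PLTP* at 321 against 605 CPM, *GSN* at 187 against 352 CPM, *ECM1* at 55.4 against 165 CPM and *CA2* at 67.1 CPM (49.1 to 89.5) against 199 CPM. *SERPINF1*, *EPHX1*, *DPT*, *UCHL1* and *PLAT* were also lower in the 73, while *PIGK* was at 194 against 213 CPM, *SELENBP1* at 121 against 137 CPM and *Eqca-2* at 105 against 109 CPM. *TOP2A* was at 10.2 CPM in the 73, 5.198 CPM in the 67 and 0 CPM in the 33, against 43.5 CPM in the cells outside.

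Down the ranking, the course of the levels varied by gene. *LUM* was at 15494, 11728, 10318 and 8560 CPM in ranks 1 to 25, 26 to 50, 51 to 75 and 76 to 100, at 8338 CPM in ranks 101 to 200, at 7252 CPM in ranks 201 to 500 and at 3711 CPM beyond. *DCN* went from 4924 to 2989 CPM within the 100 and was 2625 CPM in ranks 101 to 200. The study's list had medians of 7.15%, 6.99% and 6.71% in the upper 3 bands of 25, then 4.16% in ranks 76 to 100 and 3.74% in ranks 101 to 200. The larger fall of its median thus lay inside the 100 rather than at its edge. The 25th to 75th percentiles of ranks 51 to 75 (4.27% to 7.11%) and 76 to 100 (3.31% to 6.70%) overlapped. Median UMIs also went from 7718 to 5715 between these 2 bands, and the part of depth was not tested. The chromosome MT share had medians of 1.42%, 1.40%, 1.54% and 1.70% in the 4 bands and 1.97% beyond rank 500. *GSN* was at 305, 465, 330 and 171 CPM in the 4 bands, *PLTP* at 654, 421, 676 and 337 CPM, *TIMP1* at 1841, 1374, 1547 and 1642 CPM and *JAM2* at 926, 1008, 771 and 987 CPM. *THY1* was at 538, 558, 388 and 484 CPM in the 4 bands and 527 CPM beyond rank 500.

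**Figure D4:**
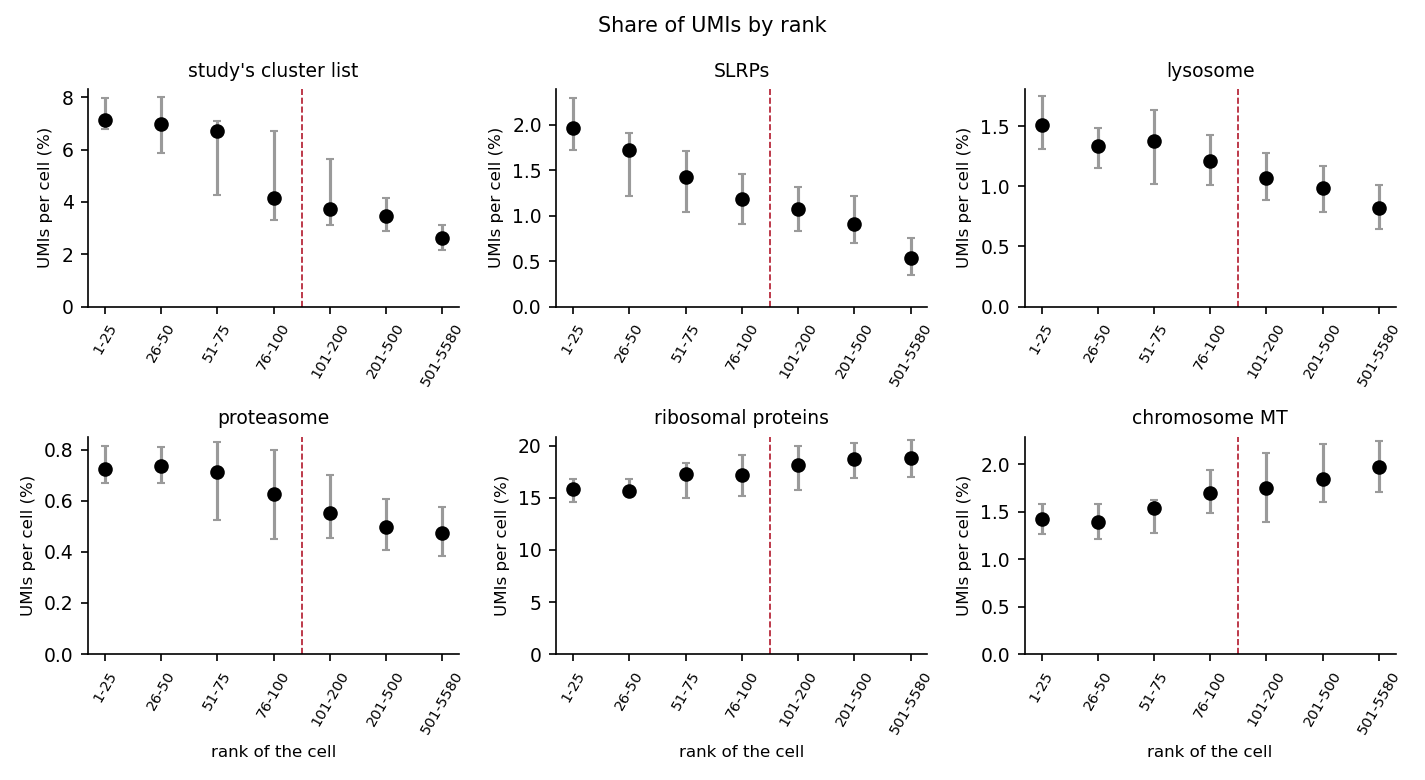
Share of UMIs per cell on 6 gene sets against the rank of the cell, as the median with bars from the 25th to the 75th percentile over cells; the red dashed line is the boundary after rank 100. Small leucine-rich proteoglycans (SLRPs) fall from 1.96% in ranks 1 to 25 to 0.535% beyond rank 500, whereas chromosome MT climbs from 1.42% to 1.97%.

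The same ranking in the other libraries gave 100 PB cells and 100 AT cells, set side by side here without a test. In PB-derived MSCs the 100 cells scored 20.4 to 43.3 per 10000 UMIs, 218 of 4372 measured genes (4.99%) were at least 2-fold higher and 95 (2.17%) at least 2-fold lower. In AT-derived MSCs they scored 12.4 to 33.7, with 31 of 4282 genes (0.724%) higher and 46 (1.07%) lower. On the study's list 92 of 128 measured genes were at least 2-fold higher in PB and 19 of 122 in AT, with medians of 1.20 and 0.76. Chromosome MT took 1.02% against 1.57% of UMIs in PB and 1.24% against 1.47% in AT, the same direction as in BM.

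Of the 15 leading BM genes, *DCN* was at 3625 against 1097 CPM in PB and 4145 against 1793 CPM in AT. *PIGK* and *PLTP* were 4.26-fold and 4.24-fold higher in the 100 PB cells, at 305 against 71.7 CPM and 580 against 137 CPM. *EPHX1* was 4.34-fold higher in PB, while in AT it was low, at 1.60 CPM over the kept cells. The level of *JAM2*, a junctional adhesion molecule, differed between the libraries, at 456 CPM over kept BM cells, 166 CPM in PB and 1.60 CPM in AT, and within BM it was 2.06-fold higher in the 100 cells (922 against 448 CPM). *COL8A1* was at 107 CPM over kept BM cells, 12.4 CPM in PB and 0.875 CPM in AT. Lysosomal genes had 13 of 42 members at least 2-fold higher in PB (median 0.70) and 2 of 43 in AT (median 0.35), and G2/M genes had 9 of 15 and 6 of 19 at least 2-fold lower.

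**Figure D5:**
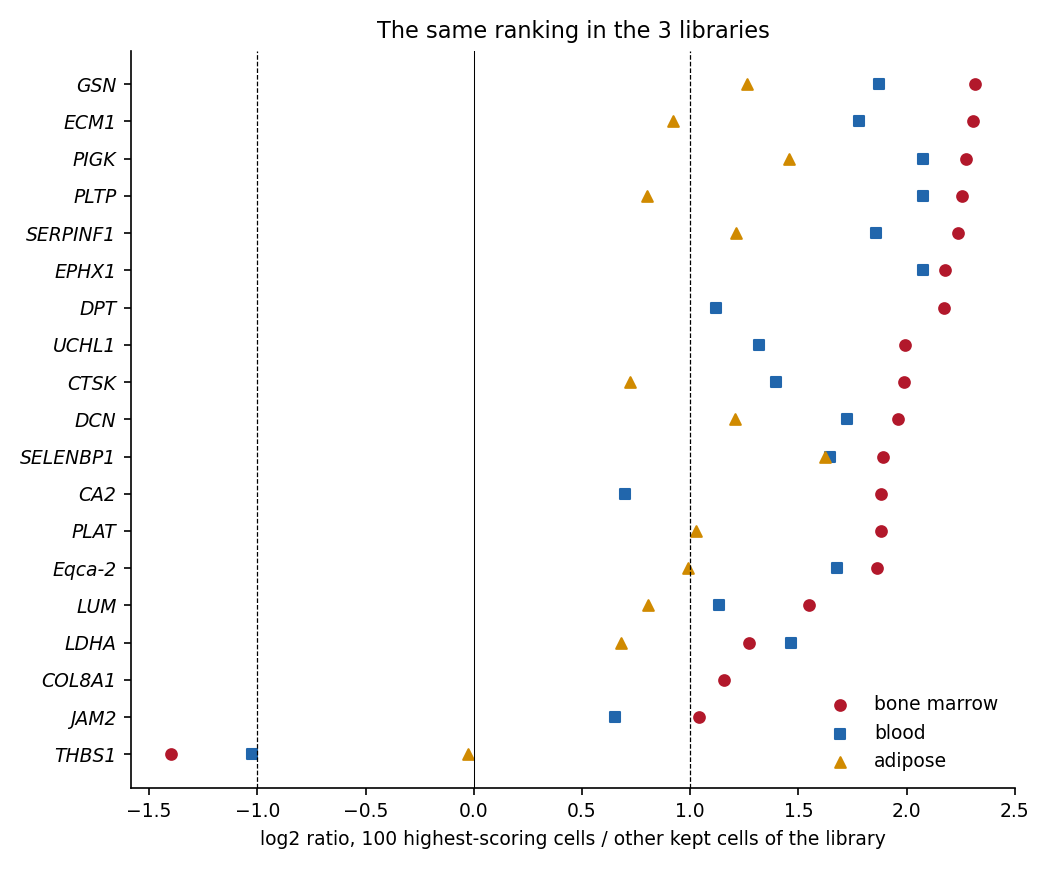
Log2 ratio of the 100 highest-scoring cells over the other kept cells of the same library for 14 of the 15 leading BM genes and 5 others named in the text, in BM (circles), PB (squares) and AT (triangles), shown where the gene reached 20 CPM in that library; dashed lines mark 2-fold. Of the leading genes drawn for PB, *CA2* is the one under 1, at 0.70, and *THBS1* has ratios of -1.40 in BM, -1.02 in PB and -0.03 in AT.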

How the data were processed

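Droplet 3′-end libraries of AT-, BM- and PB-derived MSCs from 1 mare were analysed. The authors aligned reads to EquCab3.0 with Cell Ranger and counted UMIs per gene and barcode with a 3′-end tool; the deposited values are these raw counts, whole numbers without normalization. Reads on overlapping genes and close copies may be assigned unevenly. The study left called multiplets out of its own analyses; whether the deposited matrices still hold those barcodes is not given in the sources used here. No doublet caller was run here, and barcodes above the upper UMI limit were left out.

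Cells with 2500 to 15000 UMIs and at most 3% on chromosome MT were kept and ranked. UMIs were summed over cells, scaled to CPM and compared as log2 ratios with a pseudocount of 1 CPM for genes of at least 20 CPM. Python 3.11.15, NumPy 2.4.6, SciPy 1.17.1, leidenalg 0.10.2 and edgeR 4.0.16 (TMM factors only) were used, with 23 principal components and 20 neighbours for clustering. The ranking and ratio code was tested on simulated data.

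Named genes were the 15 highest and 10 lowest log2 ratios, 5 below 20 CPM detected in 25 or more of the 100 cells, the 3 highest and 2 lowest members of each list, and a list of source genes; further list members were named after their values were seen. Some genes that this rule names are not reported here. The cells and gene lists were chosen with earlier results of these data known. Symbols are as deposited, and sequences and coordinates were not analysed here.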

Additional observations from a re-analysis of the deposited data

Results flagged for a closer look

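Some barcodes removed before the ranking also carried the ranking genes. Of 875 removed BM barcodes, 31 (3.54%) scored at or above the cell at rank 100, which drew attention because these barcodes enter no comparison above. Of these, 26 had fewer than 2500 UMIs, where a few UMIs are enough to reach the score, 1 had more than 15000 UMIs, and 4 of 166 barcodes (2.41%) were removed for their chromosome MT share alone. In the PB and AT libraries 61 of 862 and 1068 of 6354 removed barcodes reached the score of their own rank 100, and 1063 of the latter had fewer than 2500 UMIs.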

How the results depend on the processing

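Cells of 1 library allow no estimate between animals or cultures, and low calls rest on few UMIs. No paired analysis was possible because each source has 1 library, and leaving out a replicate was not possible for the same reason. Genes at least 2-fold higher (215) and lower (193) became 141 and 122 with 200 cells, 141 and 55 among cells with few cell cycle UMIs, 95 and 40 with a pseudocount of 25 CPM, 53 and 26 with a minimum of 100 CPM, and 808 and 1586 with no minimum; the number lower was 343 with 50 cells, 399 with sums thinned to 2500 UMIs per cell, and 61 among genes with a UMI in 25% of either group. The median of 7370.5 UMIs was 6291.5 with the score without *PCOLCE*, 6257 with at most 10000 UMIs and 6146.5 among cells with few cell cycle UMIs. The chromosome MT share of 1.48% was 1.42% with 50 cells, 1.58% with 200, 1.52% without *PCOLCE*, 1.56% when ranked at 2500 UMIs per cell, 1.53% with at most 10000 UMIs, 1.52% with no mitochondrial limit and 1.63% among cells with few cell cycle UMIs. All were below the 1.98% of the other cells of the main setting. The study's list share of 6.76% was, in the same order, 7.38%, 5.90%, 6.41%, 6.24%, 6.34%, 6.88% and 5.84%, with 6.53% without *LAMP2* and 6.65% without *OLFML3*. All were above the 2.73% of the other cells of the main setting. For both shares, the comparison cells of each alternative setting have their own values, which are not given here. Of 71 named genes past 2-fold under 15 settings, 971 of 1065 values stayed past 2-fold. The number of genes that stayed was 47 with a pseudocount of 25 CPM, 51 among cells with few cell cycle UMIs and 71 with TMM factors. The settings reuse many of the same cells, and many of the genes were picked for their ratios, so the total is a description. Of the values 3 changed sign, all among cells with few cell cycle UMIs: *FEN1* (0.079), *DES* (0.024) and *MSX1* (0.174). The cause of these changes was not tested.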

Other observations

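Genes below 20 CPM over the kept BM cells were looked at where 25 or more of the 100 cells held a UMI. That filter uses the 100 cells and favours high ratios, so these values are a description and no support for a difference. *FAP*, the membrane protease fibroblast activation protein, had the highest ratio among them. It was at 49.7 CPM against 8.79 CPM, 5.65-fold higher (3.91 to 7.95), with a UMI in 26 of the 100 cells and 5.64% of the others. *MRPS31*, a mitochondrial ribosomal protein, was 4.18-fold higher, *NVL*, an ATPase of ribosome assembly, 4.002-fold and *PFKM*, the muscle form of phosphofructokinase, 3.90-fold. *IGFBP5*, a binding protein of insulin-like growth factors, had no UMI in the 100 cells and was in 330 of the others at 16.5 CPM, at least 4.09-fold lower against a floor of 3 UMIs over the 100 cells, with an exact interval from 3.32-fold.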
